A study of Mus musculus with 6 samples.

Results

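The genes described here were the 10 genes of the collagen prolyl hydroxylases and procollagen chaperones, P4ha1, P4ha2, P4ha3, P4hb, P3h1, P3h2, P3h3, Crtap, Ppib and Serpinh1. They were chosen by gene symbol from the 49548 genes of a table of read counts, and all 10 passed the filter on low counts, which left 15789 genes for testing. The libraries were made from the mRNA of cardiac fibroblasts (CFs) isolated from the hearts of C57BL/6J mice aged 5 weeks. In 3 libraries the mice were wild type (WT), and in 3 they were CharmeKO, in which a polyadenylation signal inserted into the Charme locus stops the production of this muscle long non-coding RNA early. The insertion was carried in every cell of the animal rather than in fibroblasts alone. No agent was given to either group. The CFs were a dissociated heart suspension from which red cells and blood lineages had been depleted, and they were not sorted on a fibroblast protein, so other heart cells were present in the tube. The labels also list a culture medium, while the study describes these cells as freshly isolated. The study describes hearts of 3 mice of each genotype and biological replicates, but does not say outright that each library came from 1 animal, and the p-values measure the spread between these libraries.

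Collagen chains are made as procollagen in the endoplasmic reticulum (ER), where prolines are hydroxylated before the chains can fold into a stable triple helix. Prolyl 4-hydroxylase is a tetramer of catalytic alpha subunits, encoded by P4ha1, P4ha2 or P4ha3, and of beta subunits, encoded by P4hb, which is also the general protein disulfide isomerase. The prolyl 3-hydroxylases P3h1, P3h2 and P3h3 modify far fewer prolines, and P3h1 works in a complex with CRTAP and with cyclophilin B, the product of Ppib, which turns proline bonds so that the helix can zip up. HSP47, the product of Serpinh1, binds the folded helix and travels with it towards the Golgi. In the heart, fibroblasts are the main makers of the fibrillar chains that these proteins serve.

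The promoters of P4ha1, P4ha2 and Serpinh1 are shown because the ratios described further on turn on these genes. Each window holds 250 bases before and 50 after the transcription start on the gene's own strand, from RefSeq on GRCm38.p6, a build other than the one the reads were aligned to. Capitals mark the letters ACGTG or GCGTG on either strand, the core of the sites bound by hypoxia-inducible factors. The windows lie at chr10:59323046-59323345 on the plus strand for P4ha1, at chr11:54100674-54100973 on the plus strand for P4ha2, and at chr7:99353190-99353489 on the minus strand for Serpinh1.
P4ha1: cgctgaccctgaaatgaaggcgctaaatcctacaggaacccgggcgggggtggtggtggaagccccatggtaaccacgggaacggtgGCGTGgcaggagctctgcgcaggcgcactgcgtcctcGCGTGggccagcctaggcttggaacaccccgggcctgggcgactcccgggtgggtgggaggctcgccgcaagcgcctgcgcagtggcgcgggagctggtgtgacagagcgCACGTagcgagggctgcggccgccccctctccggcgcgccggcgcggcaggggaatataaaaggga
P4ha2: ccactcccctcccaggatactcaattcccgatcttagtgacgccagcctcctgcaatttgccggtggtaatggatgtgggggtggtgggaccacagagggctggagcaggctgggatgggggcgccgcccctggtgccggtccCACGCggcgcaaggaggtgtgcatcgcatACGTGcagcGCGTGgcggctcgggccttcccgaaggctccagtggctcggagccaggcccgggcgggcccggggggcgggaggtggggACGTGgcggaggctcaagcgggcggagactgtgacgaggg
Serpinh1: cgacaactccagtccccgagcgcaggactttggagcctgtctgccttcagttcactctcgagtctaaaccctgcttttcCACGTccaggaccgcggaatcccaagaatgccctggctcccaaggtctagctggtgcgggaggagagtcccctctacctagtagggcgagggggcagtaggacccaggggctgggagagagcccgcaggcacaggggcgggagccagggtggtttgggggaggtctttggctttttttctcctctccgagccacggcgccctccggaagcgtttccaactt
The P4ha1 window held 3 matches, the P4ha2 window 4 and the Serpinh1 window 1. None of these overlapped another in the printed windows. These letters are common, and 43.8% of the 32851 mouse windows held at least 1 match. Of the other members, Ppib had 7 matches, P4hb and Crtap 3 each, P3h1 2 in each of its 2 windows, and P4ha3 and P3h3 had 0. P3h2 had no window in the table. A heat shock motif and an ER stress motif were also searched for, with 0 matches in the windows of the members. Among all mouse windows, 7.86% and 0.119% held at least 1 match to these. A match describes letters only.

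The libraries held 9595701 to 42101393 counts in WT and 23550718 to 31048606 in CharmeKO, so the shallowest library was a WT one, replicate 3. Charme itself was at 26, 15 and 4 counts in the WT libraries and at 7, 0 and 0 in the CharmeKO ones, which is too few to check the labels closely. A count of 0 allows up to 3 counts, or 0.0713 to 0.313 CPM (counts scaled to a common library size) depending on the library, and these limits cover counting error only. All 10 fibroblast markers were detected, with a summed level of 24840 to 33520 CPM in WT and 27590 to 30000 CPM in CharmeKO, most of it from Gsn (20830 ± 4920 and 21220 ± 1150 CPM). They did not share a direction, and 0 passed the test in edgeR. At an unadjusted p under 0.05, Mfap5 (log2 fold change −0.63, called by DESeq2), Scara5 (−0.37) and Pi16 (−0.35) were lower and Dcn (0.29) was higher, each without overlap between the groups, while Pdgfra (−0.05), Tcf21 (0.15), Ddr2 (−0.18), Dpt (−0.05), Lum (0.32) and Gsn (0.03) overlapped. Without overlap, 8.59% of all genes tested were lower and 9.57% higher. Markers of other cells were also present. The 10 cardiomyocyte markers summed to 317 to 403 CPM in WT and 449 to 678 CPM in CharmeKO, all 10 had a higher value in CharmeKO, and the troponin gene Tnni3 (27.5 ± 3.90 against 53.6 ± 11.0 CPM, SD, n = 3) and the myosin gene Myh6 (59.1 ± 3.57 against 106 ± 24.5 CPM) passed the test. Endothelial markers summed to 7358 to 8821 CPM in WT and 7877 to 9993 CPM in CharmeKO, mural markers to 2854 to 3201 and 2781 to 3257 CPM, erythroid markers to 26800 to 39250 and 24420 to 31760 CPM, leukocyte markers to 27.7 to 51.3 and 37.8 to 49.9 CPM, Schwann markers to 22.8 to 23.6 and 25.0 to 28.2 CPM, and epicardial markers to 106 to 134 and 89.4 to 102 CPM. The epicardial gene Wt1 (log2 fold change −0.66) and the erythroid gene Slc4a1 (−1.82) were lower past the test. DESeq2 called 5 of the 10 cardiomyocyte markers, and 394 of the 15789 genes tested. At an unadjusted p under 0.05 in edgeR, 9 of 10 cardiomyocyte and 3 of 8 endothelial markers were higher and 0 lower. Lower at that level were 2 of 10 mural, 4 of 7 epicardial and 2 of 7 erythroid markers, with 0 higher. Leukocyte and Schwann markers gave 0 either way. Of all genes tested, 6.87% were lower and 5.90% higher. The leukocyte markers Itgam and Cd3e did not pass the filter on low counts, and no leukocyte marker was at 0 in all libraries. The part of these cells in the results was not tested, and in such bulk RNA fewer cells of a type and less RNA per cell cannot be told apart.

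The first question was which of these genes native CFs express. Serpinh1 led, with 501 ± 95.9 CPM per kilobase of exon over the 6 libraries (SD), and ranked 78 by CPM among the genes tested. HSP47 is made almost only by cells that make collagen. P4hb followed at 186 ± 13.0 CPM per kilobase. Ppib (62.0 ± 4.97) and Crtap (56.3 ± 8.03) came next and their ranges overlapped. P3h3 (32.2 ± 3.24) and P4ha1 (30.0 ± 3.11) also overlapped each other. P3h1 was at 20.3 ± 3.43, P4ha2 at 8.07 ± 1.58, P3h2 at 4.18 ± 0.61 and P4ha3 at 0.456 ± 0.125 CPM per kilobase, with no overlap between neighbours in this order. The highest P3h1 library (24.8) lay close below the lowest P4ha1 library (25.0). Exon length counted every annotated exon of a gene, so a gene with long alternative exons is understated on this scale.

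**Figure D1:**
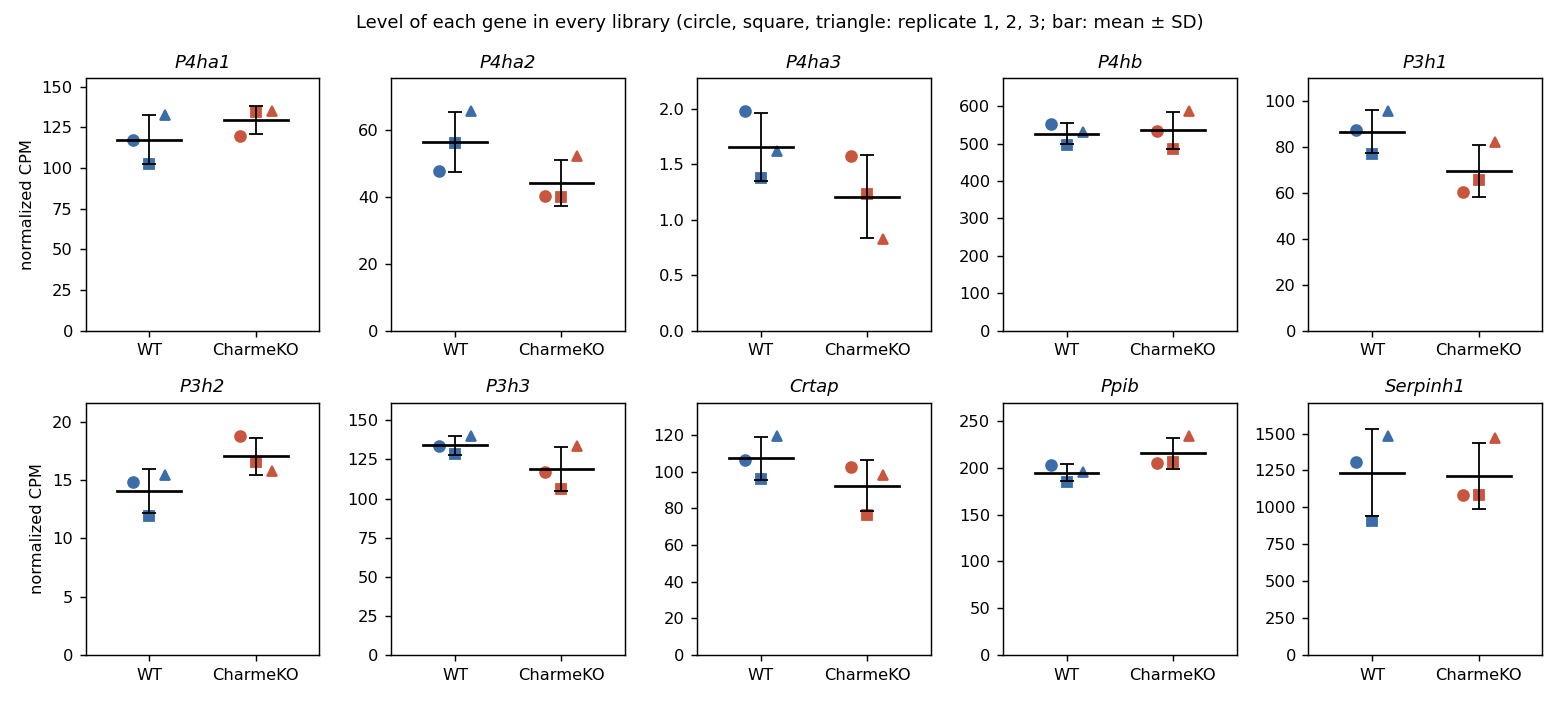
Level of each of the 10 genes in every library, in normalized CPM on linear axes from 0, with WT in blue and CharmeKO in red and with the mean and SD of the 3 libraries of each group. The groups overlap for 8 genes, and P3h2 and Ppib sit higher in all 3 CharmeKO libraries than in any WT library.

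The second question was whether the loss of Charme goes with a change in this machinery. By the quasi-likelihood test of edgeR, adjusted by Benjamini-Hochberg over every gene tested, 0 of the 10 genes passed an adjusted p of 0.05, against 0.830% of all genes. DESeq2 also called 0. P4ha2 and P3h1 had an unadjusted p under 0.05 and were lower, in edgeR as in DESeq2. In edgeR 6.87% of all genes were lower and 5.90% higher at that level. The fitted value was lower in CharmeKO for 6 members and higher for 4. The median log2 fold change of the members was −0.10, beside 0.0096 for all genes tested. With the trends with GC content and gene length removed, the median was 0.025, 4 members were lower and 6 higher in value, and 0 had an unadjusted p under 0.05. With a library left out the median lay between −0.22 and −0.02. The groups did not overlap for P3h2 and Ppib, both higher in CharmeKO, which 9.57% of all genes also were, and for 0 members in the lower direction, which 8.59% of all genes were.

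Among the prolyl 4-hydroxylase subunits the alpha subunits did not share a direction. P4ha1, the main catalytic subunit of most tissues, stood at 117, 103 and 133 CPM in the WT libraries and at 120, 134 and 135 CPM in the CharmeKO ones. The log2 fold change was 0.14 ± 0.12 (SE, 95% interval −0.13 to 0.42, adjusted p = 0.688). The groups overlapped, and the WT replicate 2 library was the lowest of the 6. P4ha2, the alternative catalytic subunit, stood at 47.8, 56.0 and 65.6 CPM in WT and at 40.4, 39.9 and 52.2 CPM in CharmeKO. Its log2 fold change was −0.35 ± 0.15 (95% interval −0.67 to −0.02, adjusted p = 0.360). It was lowest in 2 CharmeKO libraries, while the CharmeKO replicate 3 library lay within the WT range.

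P4ha3, the remaining catalytic subunit, was the least abundant member, with 15 to 84 counts in a library. It stood at 1.98, 1.37 and 1.61 CPM in WT and at 1.57, 1.23 and 0.822 CPM in CharmeKO, with a log2 fold change of −0.46 ± 0.43 (95% interval −1.40 to 0.47, adjusted p = 0.716). The standard error was nearly as large as the difference. P4hb, the beta subunit, was among the steadiest of the members, at 553, 497 and 531 CPM in WT and 534, 485 and 587 CPM in CharmeKO. Its log2 fold change was 0.02 ± 0.13 (95% interval −0.25 to 0.30, adjusted p = 0.962). The interval leaves room for a change of up to about 0.30 on the log2 scale.

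The genes of the P3H1 complex did not share a direction either. P3h1, the catalytic subunit of that complex, stood at 87.2, 76.9 and 95.4 CPM in WT and at 60.4, 65.7 and 81.9 CPM in CharmeKO. Its log2 fold change was −0.32 ± 0.14 (95% interval −0.62 to −0.02, adjusted p = 0.364). The CharmeKO replicate 3 library again lay within the WT range. Crtap, the helper subunit without enzyme activity, stood at 106, 96.2 and 120 CPM in WT and at 103, 76.3 and 98.1 CPM in CharmeKO, with a log2 fold change of −0.22 ± 0.14 (95% interval −0.52 to 0.08, adjusted p = 0.553). Its lowest library was CharmeKO replicate 2.

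Ppib, the cyclophilin of the complex, stood at 203, 185 and 196 CPM in WT and at 205, 206 and 234 CPM in CharmeKO. The groups did not overlap, although the highest WT and the lowest CharmeKO library were 203 and 205 CPM. The log2 fold change was 0.15 ± 0.12 (95% interval −0.11 to 0.40, adjusted p = 0.653). Cyclophilin B also folds many proteins other than collagen. The other prolyl 3-hydroxylases had values in opposite directions. P3h2, which acts mainly on the type IV collagen of basement membranes, stood at 14.8, 11.9 and 15.5 CPM in WT and at 18.8, 16.5 and 15.8 CPM in CharmeKO. Here too the gap between the groups was narrow, from 15.5 to 15.8 CPM. The log2 fold change was 0.28 ± 0.15 (95% interval −0.06 to 0.62, adjusted p = 0.480). P3h3, which takes part in a complex that modifies lysines of collagen, stood at 134, 128 and 140 CPM in WT and at 117, 106 and 134 CPM in CharmeKO, with a log2 fold change of −0.17 ± 0.12 (95% interval −0.44 to 0.09, adjusted p = 0.590). Its 3 WT libraries were close together and CharmeKO replicates 1 and 2 lay below them.

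Serpinh1 was the most abundant member and also one of the most variable between libraries of a group. It stood at 1309, 911 and 1486 CPM in WT and at 1084, 1081 and 1470 CPM in CharmeKO. The WT replicate 2 library was the lowest of all, and the highest library of each group reached nearly the same level. The log2 fold change was −0.03 ± 0.19 (95% interval −0.45 to 0.40, adjusted p = 0.971). Its sign turned with the library that was left out, from −0.21 without WT replicate 2 to 0.13 without WT replicate 3.

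**Figure D2:**
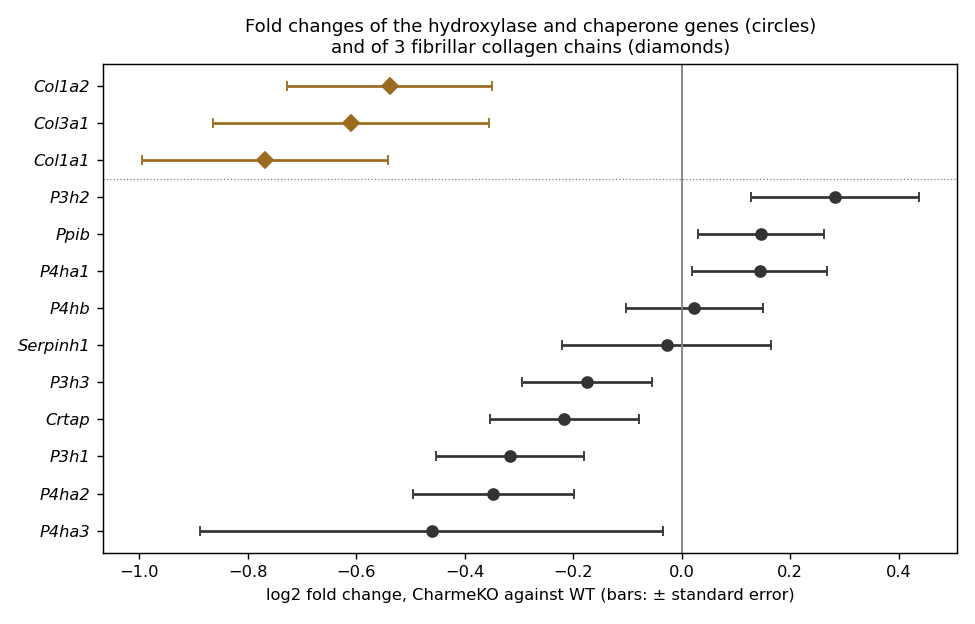
Log2 fold change of CharmeKO against WT with its standard error from the edgeR fit, for the 10 hydroxylase and chaperone genes (circles) and for Col1a1, Col1a2 and Col3a1 (diamonds), 3 libraries a group. The members lie between −0.46 and 0.28, and the 3 chains between −0.77 and −0.54.

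The clients of these proteins had lower values. Col1a1, a chain of type I collagen, stood at 4374, 3132 and 4657 CPM in WT and at 2180, 1733 and 3226 CPM in CharmeKO (log2 fold change −0.77 ± 0.23, adjusted p = 0.189). Col1a2, its partner chain, had a log2 fold change of −0.54 ± 0.19 (adjusted p = 0.269), and Col3a1, the chain of type III collagen, one of −0.61 ± 0.25 (adjusted p = 0.347). None of the 3 passed the test in this fit, while DESeq2 called Col1a1. Together they amounted to 16840, 11550 and 17740 CPM in WT and to 8963, 7394 and 13430 CPM in CharmeKO. The summed level of the 8 members dedicated to collagen, which leaves out P4hb and Ppib, was 1818, 1384 and 2056 CPM in WT and 1545, 1521 and 1988 CPM in CharmeKO. The chain sums overlapped between the groups, with CharmeKO replicate 3 above WT replicate 2, and so did the sums of the members.

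Ratios taken within a library do not depend on the scaling of libraries to a common size. They were not recomputed with the trends with GC content and gene length removed, a setting in which 0 collagen chains passed the test. Serpinh1 had 77.8, 78.8 and 83.8 counts for every 1000 counts of these 3 chains in WT, although its CPM differed widely among those libraries. In CharmeKO it had 121, 146 and 109.5. On the log2 scale the ratio was −3.64 ± 0.06 in WT and −3.00 ± 0.21 in CharmeKO (SD, n = 3), a difference of 0.64 or 1.56-fold (exact permutation test, two-sided, p = 0.1, adjusted over 6 ratios 0.2). The groups did not overlap, and 0.1 is the smallest p that 3 against 3 libraries can give. The 8 dedicated members together had 108, 120 and 116 counts for every 1000 chain counts in WT and 172, 206 and 148 in CharmeKO. This log2 ratio went from −3.13 ± 0.08 to −2.53 ± 0.24, a difference of 0.60 or 1.52-fold (exact permutation p = 0.1, adjusted 0.2). Serpinh1 held most of this sum in every library, in WT 1309, 911 and 1486 of 1818, 1384 and 2056 CPM. The ratio of the 8 members therefore largely repeats that of Serpinh1 and is not a separate result.

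Gene by gene, P4ha1, P4hb, P3h2, Ppib and Serpinh1 had a ratio to the chains that was higher in all 3 CharmeKO libraries than in any WT library. That is 5 of the 10 members, while 20.0% of all genes tested had such a ratio, since the chains in the denominator had lower values. P3h2 had the largest difference in this ratio among the members, 0.93 on the log2 scale. For P4ha2, P4ha3, P3h1, P3h3 and Crtap the ratios overlapped, with differences of 0.30, 0.16, 0.33, 0.47 and 0.43. Against Col4a1 and Col4a2, the main chains of basement membranes, the differences were similar, at 0.61 for Serpinh1 and 0.57 for the 8 members (exact permutation p = 0.1 for each, groups not overlapping). These chains had lower values in CharmeKO themselves, with log2 fold changes of −0.53 and −0.68, and DESeq2 called Col4a2. This denominator is therefore not a separate check of the ratios. Against fibroblast markers the differences were near 0 and the groups overlapped. They were −0.06 for Serpinh1 and −0.10 for the 8 members against the summed counts of all 10 markers (exact permutation p = 0.9 for each), −0.08 and −0.11 without Gsn (p = 0.9 and 0.7, exact permutation test), and 0.05 and 0.01 against Pdgfra, Tcf21 and Ddr2 alone (p = 1.0 for each, exact permutation test). The 3 fibrillar chains against the same denominators differed by −0.70, −0.72 and −0.59 (exact permutation p = 0.2 for each). These sums weigh the abundant markers most, and single markers had values in both directions. These other denominators were chosen after the data had been seen.

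**Figure D3:**
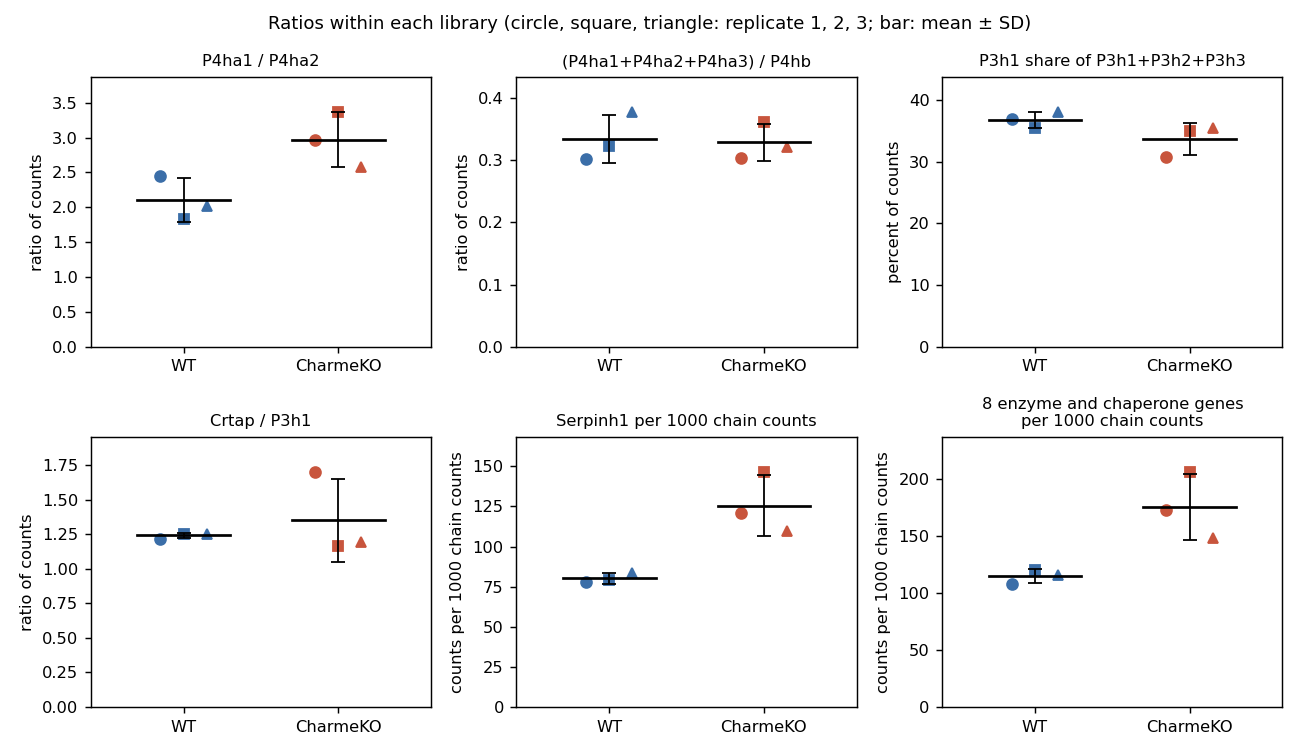
The 6 ratios in every library on linear axes from 0, in counts per count, percent of counts or counts per 1000 chain counts, with the mean and SD of 3 WT (blue) and 3 CharmeKO (red) libraries; the chains are Col1a1, Col1a2 and Col3a1. Both ratios to the chains and the P4ha1 to P4ha2 ratio are higher in every CharmeKO library, and Crtap to P3h1 is set apart by CharmeKO replicate 1.

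The balance of the subunits was compared in the same way. For each P4ha2 count there were 2.45, 1.83 and 2.02 P4ha1 counts in WT and 2.97, 3.36 and 2.58 in CharmeKO. The log2 ratio was 1.06 ± 0.21 in WT and 1.56 ± 0.19 in CharmeKO, a difference of 0.50 or 1.42-fold (exact permutation p = 0.1, adjusted 0.2). The groups did not overlap, and the difference stayed between 0.41 and 0.62 when any library was left out. The alpha subunits together kept close to their partner, with a log2 ratio to P4hb of −1.59 ± 0.16 in WT and −1.61 ± 0.13 in CharmeKO (exact permutation p = 0.8, adjusted 0.96).

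P3h1 made up 37.0%, 35.4% and 38.0% of the counts of the 3 prolyl 3-hydroxylase genes in WT and 30.8%, 34.9% and 35.4% in CharmeKO. The Wilson 95% interval of the lowest of these, CharmeKO replicate 1, was 29.6% to 32.0%, and that of WT replicate 1 was 36.0% to 37.9%, for counting error only. The difference between the means was −3.09 percentage points (36.8 ± 1.30 against 33.7 ± 2.57, exact permutation p = 0.2, adjusted 0.3), and CharmeKO replicate 3 reached the lowest WT value. Crtap and P3h1 kept a nearly fixed ratio in 5 libraries, at 1.22, 1.25 and 1.25 in WT and 1.16 and 1.20 in CharmeKO replicates 2 and 3. In CharmeKO replicate 1 it was 1.70. The log2 ratio averaged 0.31 ± 0.02 in WT and 0.41 ± 0.30 in CharmeKO (exact permutation p = 1.0), and without CharmeKO replicate 1 the difference turned from 0.10 to −0.07.

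The neighbours of these genes along the pathway were described from lists of known function. Of 40 collagen chains tested, 28 had a lower and 12 a higher value in CharmeKO, with a median log2 fold change of −0.55, and 3 passed the test, all lower. This count was 0 with the GC and length trends removed and without any 1 of 4 libraries (WT replicates 1 and 3, CharmeKO replicates 1 and 2), and 11 in DESeq2. The 3 were Col4a4 (−1.10, adjusted p = 0.0305) and Col4a3 (−0.89, adjusted p = 0.0459), chains of basement membrane collagen, and Col26a1 (−1.28, adjusted p = 0.0348). Of the 11 other genes that modify procollagen in the ER, 0 passed, with a median of −0.07. The extremes by p were Plod2, a lysyl hydroxylase (−0.42, adjusted p = 0.269), and Fkbp7, a prolyl isomerase (0.28, adjusted p = 0.434). Of 16 genes of procollagen export, 0 passed, with a median of −0.03, and the COPII coat genes Sec24a (−0.40, adjusted p = 0.278) and Sec24d (−0.36, adjusted p = 0.293) had the lowest p. Of 8 genes that process procollagen outside the cell, 0 passed in edgeR and 3 in DESeq2, with a median of −0.31. Bmp1, which cuts off the C-terminal propeptide, was at −0.58 (adjusted p = 0.117), and the related protease gene Tll2 at 0.80 (adjusted p = 0.111).

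General folding and cofactor genes gave no call. Of 17 genes of general ER folding, 5 had a lower and 12 a higher value and 0 passed, with a median of 0.09. For 11 of them the ratio to the fibrillar chains was higher without overlap. That also held for 5 of the 10 members and for 20.0% of all genes tested. The chaperone Hsp90b1 was at 0.36 (adjusted p = 0.415) and the cyclophilin Ppic at −0.27 (adjusted p = 0.410). The 5 other prolyl hydroxylase genes, among them Egln1 (0.14) and Egln2 (−0.11) that act on hypoxia-inducible factors, gave 0 calls and a median of 0.01. Of 15 hypoxia-inducible genes, 0 passed, with a median of 0.06, and Vegfa (−0.45, adjusted p = 0.183) and Ndrg1 (0.31, adjusted p = 0.395) had the lowest p. The 6 genes of ascorbate and iron supply, cofactors of the hydroxylases, gave 0 calls and a median of −0.03, with Slc39a14 at −0.31 and Tfrc at 0.28. At an unadjusted p under 0.05 in edgeR, 22 of the 40 collagen chains were lower and 0 higher, and 2 and 0 of the 10 members. Of all genes tested, 6.87% were lower and 5.90% higher at that level. With the GC and length trends removed the members' count was 0, and that of the chains was not taken.

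**Figure D4:**
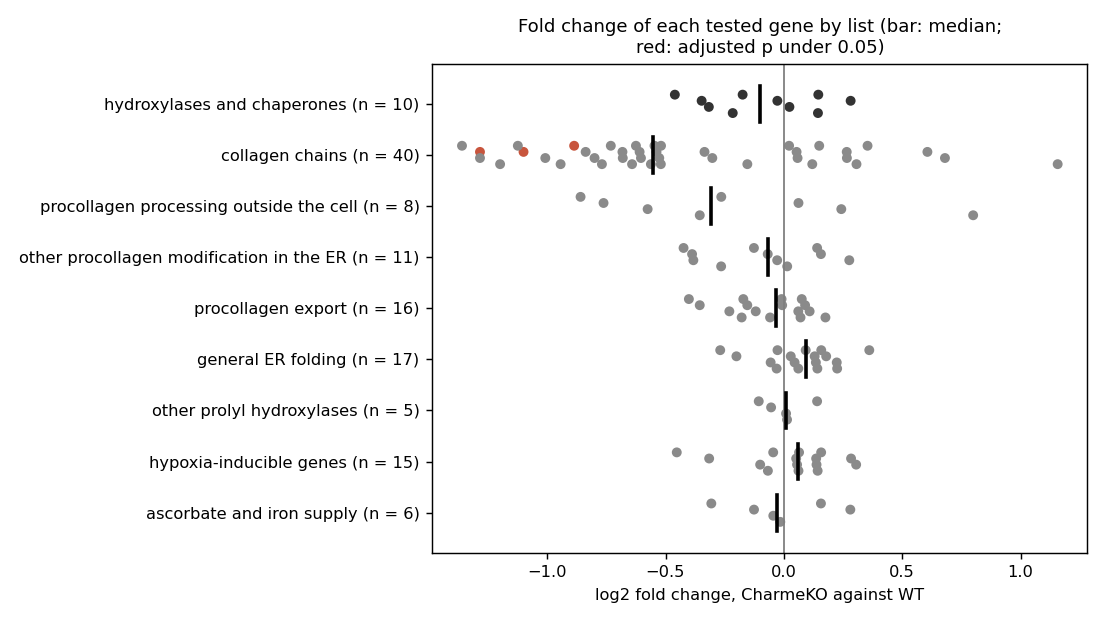
Log2 fold change of CharmeKO against WT for each gene tested, by list, with the median as a bar and genes past an adjusted p of 0.05 in red. The 10 hydroxylase and chaperone genes scatter around a median of −0.10 (0.025 with GC and length trends removed), the 40 collagen chains around −0.55, and the 3 red points are Col4a4, Col26a1 and Col4a3.

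The genes whose levels followed each member most closely over the 6 libraries were found by the root mean square difference of the centred log2 CPM, among 8913 or 8914 other genes at 10 CPM or more. Serpinh1 was followed less closely than the rest of the abundant members, by Ap3s1 (0.0792), Rangap1 (0.0825) and Psmd14 (0.0842), where its own SD was 0.282. P3h1 lay close to Bak1 (0.036), Dtx2 (0.0371) and Gpx7 (0.045), and P4ha2 to Prelp (0.0478), Sdc4 (0.0489) and Gas2l1 (0.0519). P4ha1 lay closest to Sdcbp, Cibar1 and Brms1l (0.0371 to 0.0404), P4hb to Rabif, Abcf2 and Cop1 (0.0143 to 0.0306), P3h2 to Psma3, Evi5 and Rpf1 (0.0394 to 0.0518), P3h3 to Sfxn3, Elmo1 and Vasp (0.0261 to 0.0313), Crtap to Lynx1, Pdcd4 and Abi3bp (0.0381 to 0.0442) and Ppib to Gnai2, Gypc and Rps2 (0.0273 to 0.0346). P4ha3, at its low counts, lay closest to Dock8 (0.0597), followed by Zfp62 and Slc25a15 (0.156 and 0.158). No member was among the 3 nearest genes of another. The median difference over all genes compared was 0.189 for P4hb, the smallest, to 0.417 for P4ha3, the largest. With so many genes and 6 libraries some will lie close without any link, and no link was tested.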

How the data were processed

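The authors aligned Q30-filtered Illumina reads of poly(A) libraries with STAR to the mouse assembly GRCm39 and deposited raw counts per gene, taken by STAR in the reverse strand configuration from an Ensembl annotation to which Charme was added. The submitters' processing notes name GRCm39, GRCh38, STAR and DESeq2 without versions. A separate column held each of the 6 libraries. A gene was kept where 2 or more libraries had 10 counts or more, and tested with edgeR 4.0.16 in R 4.3.3 (TMM normalization, quasi-likelihood test with the legacy setting of glmQLFit, genotype as the only term). DESeq2 1.42.0 was an alternative, and the edgeR code was tested on simulated data. CPM values used the TMM library sizes, and exon lengths came from the GENCODE annotation of GRCm38. Ratios of counts within a library were compared by exact permutation of the libraries (scipy 1.17.1). Within each group, no pair of libraries agreed within sampling noise. The only transcript of another gene that closely matched a member was Gm4524, opposite in strand to P3h2 over 1055 bases, at 0 counts. Whether it is a copy or lies at the same place in the genome was not examined.

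The members and lists were chosen with earlier results of these data known. The genes named are the 10 members, the 3 chains of the ratios, the 3 genes nearest to each member, Charme, and from each list those past the threshold or otherwise at most the 2 with the lowest p. Tnni3, Myh6, Slc4a1 and Wt1 are the markers past the threshold. The 10 fibroblast markers, Itgam, Cd3e, Col4a1 and Col4a2 are named outside this rule, after their values were seen. Alternatives were other normalizations, filters and tests, a replicate block, removal of trends with GC content and length, and each library left out. Promoter windows were given by RefSeq, and protein sequences were not used here.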

Additional observations from a re-analysis of the deposited data

How the results depend on the processing

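Of the 150 alternative values of the members' log2 fold changes, 142 kept their sign and side of the threshold and 8 changed sign, and 0 members were called under any of the 15 alternatives. The lowest adjusted p of a member under any alternative was 0.137, for P4ha2 with the replicate block. With the trends with GC content and gene length removed, P3h3 was at 0.019 and Serpinh1 at 0.031, the members' median moved from −0.10 to 0.025, and 0 members had an unadjusted p under 0.05. Left-out libraries took Serpinh1 to between −0.207 and 0.126 (above 0 without WT replicates 1 or 3 or CharmeKO replicates 1 or 2), P4hb to between −0.048 and 0.092 (below 0 without WT replicate 2 or CharmeKO replicate 3), the members' median to between −0.22 and −0.02, the ratio of alpha subunits to P4hb to between −0.093 and 0.069 (above 0 without WT replicate 3 or CharmeKO replicate 1), and that of Crtap to P3h1 to between −0.074 and 0.20 (below 0 without CharmeKO replicate 1).

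Calls in the other pathway lists, 3 in the report, were 14 with DESeq2, 24 with no filter and 0 with the GC and length trends removed, and 0 to 13 with a library left out (13 without WT replicate 2, 11 without CharmeKO replicate 3 and 0 without any other). Over all genes, 131 calls became 394, 699, 103 and 61 to 349 under the same settings. Same-numbered libraries correlated in their deviations at 0.137, 0.00727 and 0.106, and libraries of different numbers at −0.154 to 0.03. These values do not settle whether the numbers pair the samples, and they were not taken to. With the replicate block there were 19 calls in these lists and 302 in all, and P4ha2 and P3h1 had an unadjusted p of 0.00694 and 0.0112 in edgeR. Against all 10 fibroblast markers in place of the chains, a choice made after seeing the data, the ratios of Serpinh1 and of the 8 dedicated members differed by −0.062 and −0.099, and without Gsn by −0.078 and −0.114. For the ratios, the replicate block left the 6 differences as they were, and its exact permutation test cannot go below p = 0.25. The removal of GC and length trends was not applied to the ratios. The fit without the legacy setting, added after seeing the data, gave 3 calls in these lists and 149 in all.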
